A study of Arabidopsis thaliana with 18 samples.

Results

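The sites described here are ChIP-seq peaks of SVP:GFP that carried an assigned gene and overlapped no FLC peak. The sites were selected on the peak calls: the authors had assigned a gene to the peak, and it shared not even 1 bp with a peak of either FLC list. The strength of the calls is therefore given as a description, with no test. Of the 1503 peaks in the 4 deposited lists, 476 met the rule. They were 70.3% of the 677 genic SVP:GFP peaks, with 138 of the 193 genic peaks in *flc-3* (71.5%) and 338 of the 484 genic peaks in WT (69.8%). Peaks of both lists that overlapped each other were counted as 1 site, which gave 384 sites made of 474 of the peaks. They are called SVP-only sites, and the 160 sites with an FLC overlap are called FLC-overlapping sites. The remaining 2 peaks, both from *flc-3*, lay under WT peaks that did overlap FLC. They belonged to *JAZ9* (AT1G70700, listed as *TIFY7*) and to the *SVP* locus itself, and their sites were counted as FLC-overlapping.

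SVP:GFP was precipitated with an antibody against GFP from 2-week-old *A. thaliana* seedlings (Columbia-0 with an active *FRI* allele, which keeps *FLC* expression high). The transgene *SVP::SVP:GFP* carries its own *SVP* promoter and replaced the mutated endogenous gene of *svp-41* plants, which had either a mutated *FLC* gene (*flc-3*) or functional *FLC* (WT). *35S::GFP* plants, in which GFP alone was expressed from a strong general promoter, served as control in each SVP:GFP list. The FLC protein was precipitated with an antiserum from *svp-41* and from WT plants, both *FRI*, with *svp-41 flc-3* plants as control. There were 3 samples in each of the 6 groups. The labels give long days and the methods of the study short days. The above-ground tissue was collected, without roots. It mixes many cell types, so a peak in few cells and a weaker peak in many cannot be told apart. Each list merges its replicates, so no SD or n can be given for a peak, and the depth behind the lists is unknown. A site missing from a list had no peak past the authors' threshold there, which does not show that SVP was absent. In the same way, SVP-only means that neither FLC list had an overlapping peak, and does not show that FLC did not bind there.

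SVP and FLC are MADS-box transcription factors that delay flowering, and they can act in a common protein complex. MADS-box proteins bind DNA as dimers, typically at the CArG-box, a stretch of A and T bases between CC and GG. The G-box, CACGTG, is bound by bHLH and bZIP factors, among them the PIF proteins of light signalling. The CE-box is a motif of 15 positions that the study derived from SVP peaks of these same data, and it resembles an inverted repeat with the arms ACCGG and CCGGT around 6 bases.

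The sequence at the summits set the SVP-only sites apart from the FLC-overlapping sites. In the 200 bp around the summit, 51 of 384 SVP-only sites held a CE-box with up to 2 mismatches (13.3%), against 0 of 160 FLC-overlapping sites (95% Wilson upper bound 2.34%). The difference was 13.3 percentage points (Newcombe interval 9.45 to 17.0, Fisher's exact test, two-sided, *P* = 1.39e-08, adjusted *P* = 1.39e-07 over 10 motifs). The study found this motif in SVP peaks of these lists, enriched in those of both genotypes and of WT only. It was not enriched in those of *flc-3* only or in FLC peaks. Its presence, its contrast with FLC-overlapping sites and its spread over the classes are thus no independent evidence. The *P* values of the CE-box here and by class only describe. The CArG-box ran the other way, with 10 of 384 SVP-only sites (2.60%) and 17 of 160 FLC-overlapping sites (10.6%), a difference of −8.02 points (interval −13.9 to −3.59, Fisher's exact test, *P* = 0.000275, adjusted *P* = 0.00138). Among the 27443 windows of 200 bp before protein-coding genes, 0.343% held a CE-box and 2.12% a CArG-box, so the share of SVP-only sites with a CArG-box was near that of promoters at large. With 1 mismatch allowed between the CC and GG ends, or with CC, 7 A or T and G, it was 55 of 384 SVP-only sites (14.3%), against 68 of 160 (42.5%), beside 16.5% of windows before genes.

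Both differences were also seen among the sites present in both genotypes. Of the 89 SVP-only sites found in *flc-3* and in WT, 34 (38.2%) held a CE-box, against 0 of 43 FLC-overlapping sites of the same kind (Fisher's exact test, adjusted *P* = 2.21e-06), and 1 held a CArG-box (1.12%), against 9 of 43 (20.9%, adjusted *P* = 0.000835). G-boxes were present at 32 of the 89 sites (36.0%), against 4 of 43 (9.30%, Fisher's exact test, adjusted *P* = 0.00492). These comparisons within a class were chosen after seeing the data, and those of the CE-box are no independent evidence. Among sites found in WT only, 17 of 249 SVP-only sites held a CE-box (6.83%), against 0 of 104 FLC-overlapping sites (Fisher's exact test, adjusted *P* = 0.0442). CArG-boxes were at 2.81% of the SVP-only sites of that class, against 3.85%, and G-boxes at 14.1%, against 12.5% (Fisher's exact test, adjusted *P* = 0.978 for each). Among sites found in *flc-3* only, CArG-boxes were at 2 of 46, against 4 of 13 (Fisher's exact test, adjusted *P* = 0.178), and CE-boxes at none of either kind. Over all classes the G-box was at 68 SVP-only sites (17.7%), against 17 FLC-overlapping sites (10.6%), and the difference of 7.08 points did not pass adjustment (Fisher's exact test, *P* = 0.0387, adjusted *P* = 0.0775). Before genes, 5.64% of windows held a G-box.

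The CE-boxes are shown with 30 bases from 11 sites found in both genotypes, chosen for genes described further on, with every ACCGG and CCGGT in capitals. All are read on the plus strand of TAIR10.1 (RefSeq). The first 4 belong to *DFL1* (chr5:22134665-22134694) and *WES1* (chr4:13652649-13652678), related auxin-conjugating enzymes, and to *SHM6* (chr1:7754185-7754214) and *SHM7* (chr1:13698756-13698785), related serine hydroxymethyltransferases. Then come *CINV1* (chr1:13125368-13125397) and *CINV2* (chr4:6023947-6023976), cytosolic invertases, and *TRP1* (chr5:23967208-23967237) and *TBP1* (chr5:4460744-4460773), which bind telomeric repeats. The last are *JAZ3* (chr3:6119631-6119660), *TIC* (chr3:7912269-7912298) and *ARF2* (chr5:24910289-24910318).
DFL1: ccgtaaaACCGGcaatacCCGGTtaatccg
WES1: gcggattaACCGGatattgCCGGTttggta
SHM6: tgtaagtcACCGGctactCCGGTtgaaaag
SHM7: cttgtcgactggtaatagCCGGTagtagta
CINV1: ttagtttACCGGTtataACCGGTgaaaaag
CINV2: ggagttaACCGGTaattACCGGTtaagaaa
TRP1: ggtgtcgaccgataatagCCGGTgaagaga
TBP1: gaagagtgactggctctacCCGGTaaatcc
JAZ3: cctttttaaccgactatatCCGGTgacgta
TIC: tctgtctACCGGTaatagCCGGTgatacat
ARF2: aatggtaACCGGTgaatgCCGGTtatccat

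The arm alone was more frequent than the whole motif. This description was made after looking at the sequences, and it has no test. ACCGG or CCGGT lay within 100 bp of the summit at 134 of 384 SVP-only sites (34.9%), against 5 of 160 FLC-overlapping sites (3.12%) and 10.4% of windows before genes. At the sites of both genotypes it was 63 of 89 (70.8%), with 2 copies or more at 52 of them. Sites found in *flc-3* only had it at 3 of 46 (6.52%), and sites found in WT only at 68 of 249 (27.3%). The complete repeat ACCGGNNNNNNCCGGT, which reads the same on both strands, was at 22 SVP-only sites (15 of both genotypes and 7 of WT only), at 0 FLC-overlapping sites and in 0.0875% of windows before genes. With 5 bases between the arms, as in *SHM6* above, there were 9 sites of both genotypes and 5 of WT only, with 3 bases 4 and 3, and with 7 bases 1 site of WT only.

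**Figure D1:**
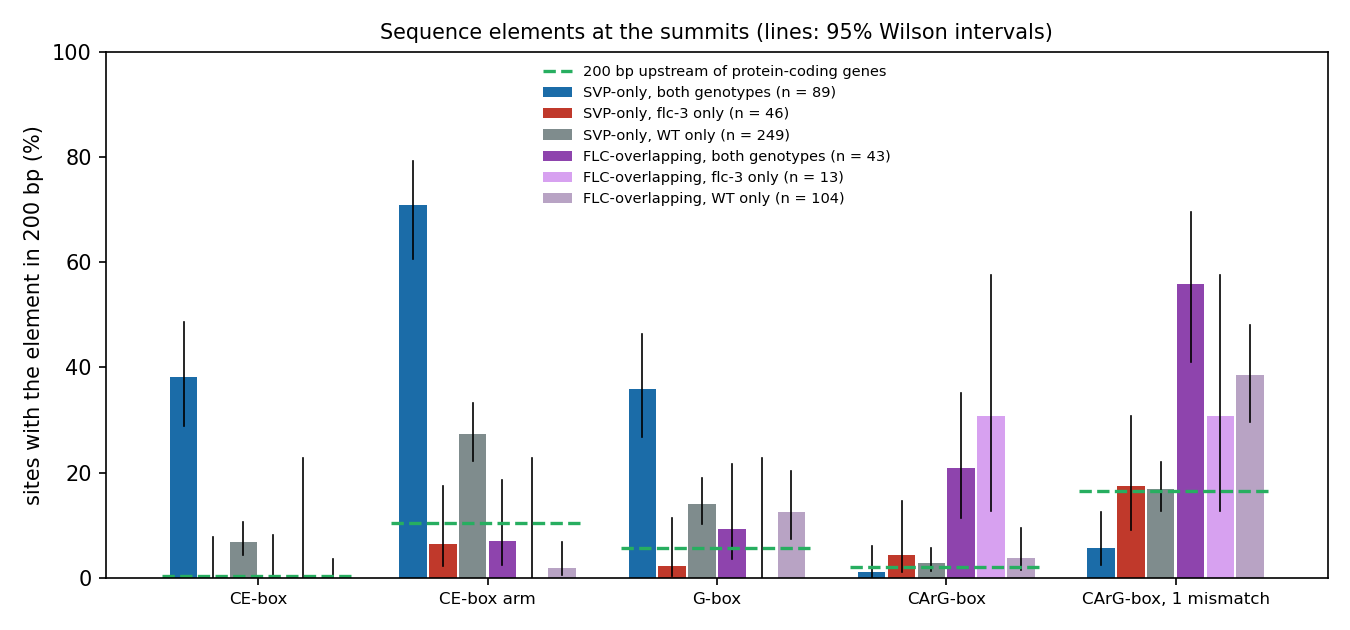
Share of sites, in percent, with each sequence element in the 200 bp around the summit, by class of site. Bars are shares, thin lines are 95% Wilson intervals, and dashed lines give the share of 200-bp windows before protein-coding genes. CE-box arms reached 70.8% and G-boxes 36.0% at SVP-only sites of both genotypes, while CArG-boxes reached 20.9% at FLC-overlapping sites of both genotypes and 1.12% at those SVP-only sites.

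Distances were taken from the summit to the nearest match within 100 bp, so they have an upper limit and no background here. The nearest arm was a median of 23.5 bp from the summit at the 134 sites that had one, and 114 of them (85.1%) had it within 50 bp. G-boxes were a median of 27 bp away, within 50 bp at 48 of 68 sites (70.6%), against 39 bp and 11 of 17 (64.7%) at FLC-overlapping sites. The few CArG-boxes of SVP-only sites were further out, with a median of 55.5 bp over 10 sites, against 14 bp over the 17 FLC-overlapping sites. Arms and G-boxes could share a site: 27 of the 32 G-box sites of both genotypes also held an arm, beside 63 of all 89 sites of that class (70.8%). Over all SVP-only sites it was 43 of the 68 G-box sites, beside 134 of 384 sites (34.9%). Neither element was present at 21 of the 89 sites of both genotypes, at 42 of the 46 sites of *flc-3* only and at 162 of the 249 sites of WT only.

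**Figure D2:**
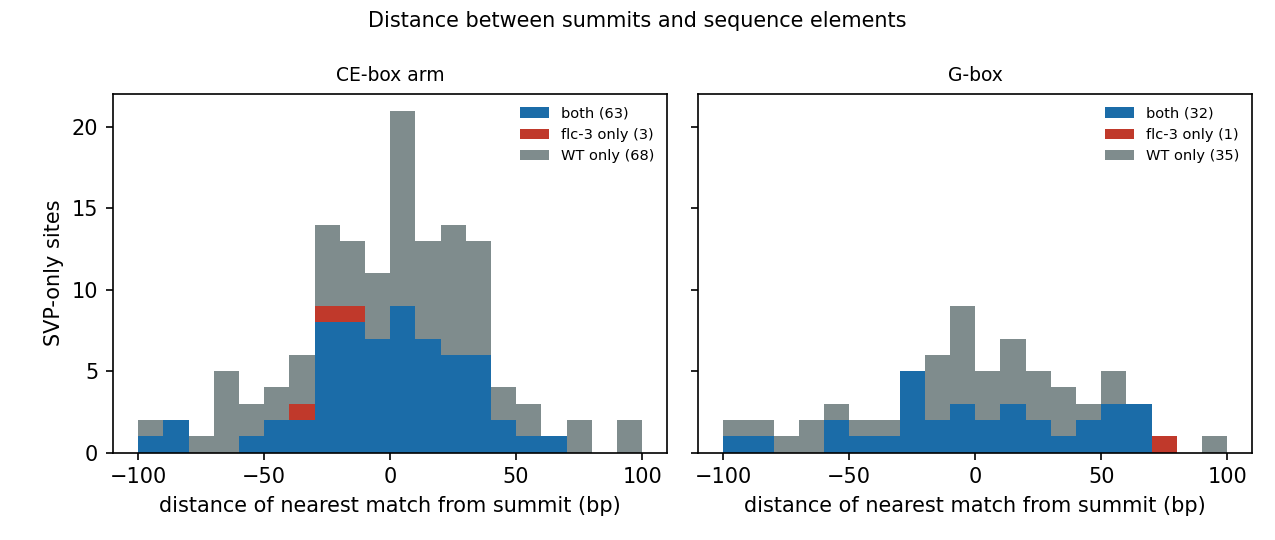
Number of SVP-only sites by the distance, in bp, of the nearest CE-box arm (left) or G-box (right) from the summit, stacked by presence in both genotypes, in *flc-3* only or in WT only. The arm was within 50 bp at 114 of 134 sites and the G-box at 48 of 68 sites.

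Of the other elements searched on both strands, none passed adjustment at the 0.05 threshold over the 10 motifs. The E-box CACATG was at 39 SVP-only sites (10.2%), against 28 FLC-overlapping sites (17.5%), and the site II element, TGGGCC or TGGGCT, gave the same counts (Fisher's exact test, *P* = 0.0218 and adjusted *P* = 0.0544 for each). The ABRE core, ACGTGG or ACGTGT, was at 24.7% of the SVP-only sites, against 18.8%. It overlaps the G-box in part. The W-box, TTGACC or TTGACT, was at 21.6%, against 16.9%, the telo-box AAACCCTA at 2.60%, against 1.25%, the GCC-box GCCGCC at 1.82%, against 0.625%, and the evening element AAAATATCT at 1.04%, against 1.88%. Windows before genes held them at 8.99% for the E-box, 17.6% for the site II element, 14.0% for the ABRE core, 24.3% for the W-box, 3.72% for the telo-box, 1.46% for the GCC-box and 1.92% for the evening element.

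G-boxes without an arm were found at 5 sites of both genotypes. *FBW2* (AT4G08980), which encodes an F-box protein, and *ICK1* (AT2G23430), an inhibitor of cyclin-dependent kinases, are shown with the G-box in capitals at chr4:5757901-5757930 and chr2:9978170-9978199.
FBW2: catctacacagaCACGTGtacactatctct
ICK1: ttgttttattgaCACGTGtcggttataaac

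The CArG-box members were few, and 4 of the 10 are shown with the CArG-box in capitals. They are *PIF3* (chr1:3077154-3077183), *TOE1* (chr2:12228647-12228676, listed as *RAP2.7*), *SIP3* (chr4:15066972-15067001) and *MEE51* (chr4:1939102-1939131), the last being the 1 such site found in both genotypes.
PIF3: tatgaattcaCCTTTTTAGGatcaagactt
TOE1: tgttgttggtCCTTTTTTGGcagtggtata
SIP3: gttatcactcCCTAATAAGGgtatctacgt
MEE51: caataaatgaCCAAATTTGGcatattagaa

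By presence, 89 SVP-only sites (23.2%) were in both genotypes, 46 in *flc-3* only and 249 (64.8%) in WT only. The question whether sites without FLC kept their SVP:GFP peak when *FLC* was mutated was asked of the WT peaks. A peak in *flc-3* was found for 89 of the 338 WT peaks without FLC (26.3%), against 42 of the 146 WT peaks with FLC (28.8%), where 27.1% of all genic WT peaks had one. The difference of −2.44 points (interval −11.4 to 5.91) did not pass the test (Fisher's exact test, two-sided, *P* = 0.579). The share moved with the strength of the peaks: at or above the median −log10(*P*) of genic WT peaks the shares were 77 of 146 (52.7%), against 39 of 96 (40.6%, Fisher's exact test, *P* = 0.0675), and below it 12 of 192 (6.25%), against 3 of 50 (6.0%). With a −log10(*P*) of at least 20 required in all lists they were 11.9% and 30.6%. The median −log10(*P*) in *flc-3* at sites of both genotypes was 18.7 for SVP-only sites, below this cut, and 29.5 for FLC-overlapping sites. The cut also removed weaker FLC peaks, which left 74 FLC-overlapping sites. It thus acts on the strength of the calls, and no test is given for it.

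The fold-enrichment over the control at the sites of both genotypes had a median of 3.68 in *flc-3* (2.67 to 5.95) and 6.43 in WT (2.43 to 9.65). The value was lower in *flc-3* at 77 of the 89 sites, with a median ratio of *flc-3* to WT of 0.609, beside 35 of 42 and a median ratio of 0.771 at FLC-overlapping sites of both genotypes. Fold-enrichment depends on the depth of each list, which is unknown, and the lists share their control. Of the 12 sites with the higher value in *flc-3*, 11 held neither an arm nor a G-box and 1 held an arm. Sites of *flc-3* only had a median fold-enrichment of 3.03 in *flc-3* (1.67 to 4.95), and those of WT only a median of 3.37 in WT (2.43 to 6.65). The summits in *flc-3* and WT were a median of 37 bp apart, and within 50 bp at 59 of the 89 sites. Among the WT-only sites, the 62 with the highest −log10(*P*) held an arm at 27 sites (43.5%) and a G-box at 20 (32.3%), and the 63 with the lowest held them at 10 (15.9%) and at 7 (11.1%).

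**Figure D3:**
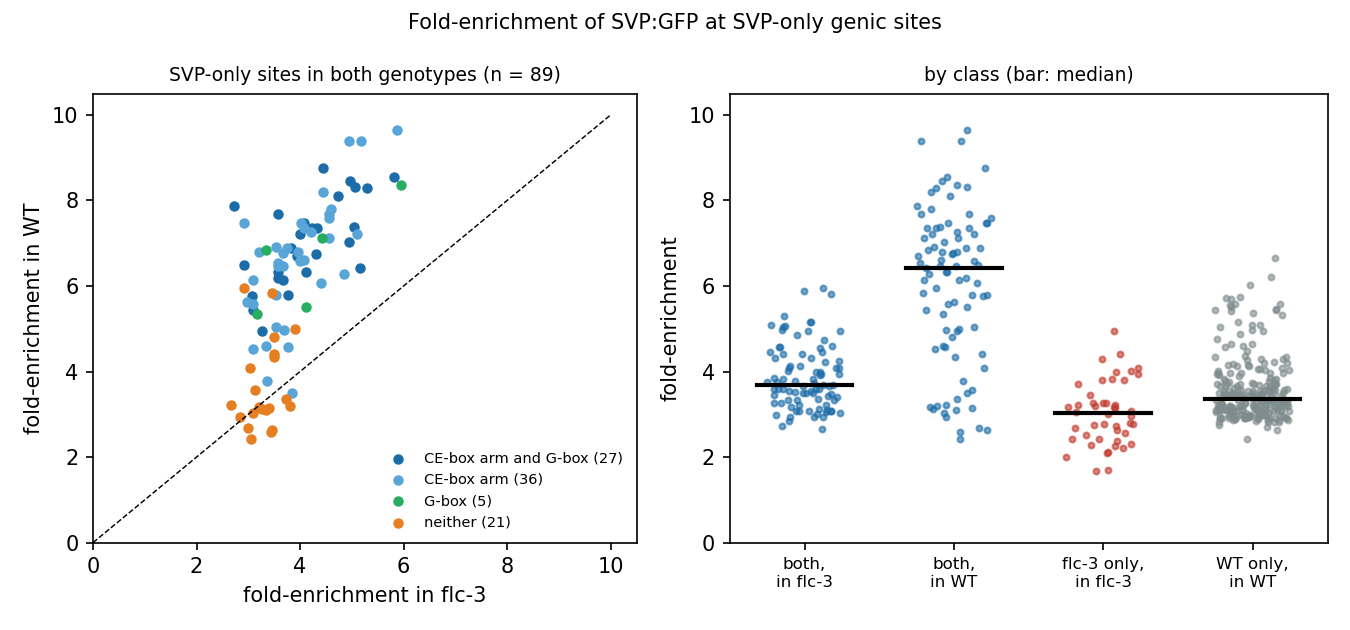
Fold-enrichment of SVP:GFP at SVP-only sites, as given by the authors' peak calling. Left, each of the 89 sites of both genotypes with its value in *flc-3* (x) and in WT (y), coloured by the elements at the summit, with the dashed line marking equal values. Right, the values by class with black bars at the medians of 3.68, 6.43, 3.03 and 3.37. The 21 sites with neither element had a median of 3.18 in WT.

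By −log10(*P*) in WT, the strongest SVP-only site was that of *DFL1* (AT5G54510), a GH3 enzyme that conjugates amino acids to auxin. Its peak (chromosome 5, 22134148 to 22135011) had a fold-enrichment of 5.87 in *flc-3* and 9.65 in WT, rank 21 and rank 2 of the lists, with the summit 1049 bp upstream. Its relative *WES1* (AT4G27260) had 4.56 in *flc-3* and 7.60 in WT, with the summit 962 bp upstream, and the windows of these paralogues aligned over 137 bp with 77.4% identity. In *flc-3* the first was that of *FBW2*, rank 9. The next sites of both genotypes by −log10(*P*) in WT were those in the 5′UTR of AT4G33400 beside *SPPL1* (4.94 and 9.38), a signal peptide peptidase-like gene, at *FBW2* (5.95 and 8.36), between *DD46* and *SHM6* (5.17 and 9.39) and between *THH1* and *PER4* (5.07 and 8.31), each value in *flc-3* and then in WT. Of these 5 sites, 4 held an arm and none a CArG-box.

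Related genes recurred among the members. Besides *DFL1* and *WES1*, the paralogous pairs with both sites in both genotypes included *SHM6* and *SHM7* (AT1G36370, 4.45 in *flc-3* and 8.20 in WT), *CINV2* (AT4G09510, 2.92 and 7.48) and *CINV1* (AT1G35580, 3.66 and 6.46), and the SEUSS-like co-regulators *SLK2* (AT5G62090, 5.04 and 7.38) and *SLK1* (AT4G25520, 3.07 and 5.77). In all of these the value in WT was the higher one, as it was at 77 of all 89 sites of both genotypes. Of 14 genes named in RefSeq as binding telomeric repeats, 4 had an SVP-only site: *TRP1* (4.23 in *flc-3* and 7.36 in WT), *TRFL9* (3.58 and 6.46), *TBP1* (3.77 and 5.79) and, in WT only, *TRFL1* (5.51). Each of these 4 windows held an arm. Of 69 *WRKY* genes, which encode transcription factors of defence and stress responses, 8 (11.6%) had a site, beside 2.06% of the 27444 protein-coding genes. *WRKY8*, *WRKY23*, *WRKY28* and *WRKY48* had sites in both genotypes and *WRKY6*, *WRKY7*, *WRKY17* and *WRKY22* in WT only. Other families had 3 of 25 B-box genes, 6 of 124 *MYB* genes (4.84%) and 4 of 101 ERF/AP2 genes. For bHLH genes it was 4 of 135 (2.96%), for bZIP genes 1 of 68 (1.47%) and for *NAC* genes 1 of 83 (1.20%). The counts of these other families missed members with a site, such as the bHLH genes *PIF3*, *PIF4* and *PIF5* and the AP2-like *TOE2*. They are therefore too low and are not read against the share of all protein-coding genes. These families were picked after the genes were seen.

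Whole windows are shown for 2 pairs of related genes, since they share both elements and part of their sequence. *AGL14* (AT4G11880) and *AGL19* (AT4G22950) are related MADS-box genes, and *AGL19* promotes flowering after cold. The fold-enrichment at *AGL14* was 5.15 in *flc-3* and 6.43 in WT, and at *AGL19* 3.82 and 6.89, with summits 487 bp and 516 bp upstream. The 200-bp windows (chr4:7142335-7142534 and chr4:12028420-12028619) aligned over 124 bp with 78.2% identity. *WRKY28* (4.07 and 7.48) and *WRKY8* (2.72 and 7.88) had summits 889 bp and 637 bp upstream, and their windows (chr4:10060225-10060424 and chr5:18804593-18804792) aligned over 78 bp with 83.3% identity. Arms and G-boxes are in capitals on the plus strand.
AGL14: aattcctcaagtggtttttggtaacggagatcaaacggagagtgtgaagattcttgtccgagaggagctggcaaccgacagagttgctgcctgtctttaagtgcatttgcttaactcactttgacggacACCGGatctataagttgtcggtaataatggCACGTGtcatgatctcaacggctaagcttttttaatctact
AGL19: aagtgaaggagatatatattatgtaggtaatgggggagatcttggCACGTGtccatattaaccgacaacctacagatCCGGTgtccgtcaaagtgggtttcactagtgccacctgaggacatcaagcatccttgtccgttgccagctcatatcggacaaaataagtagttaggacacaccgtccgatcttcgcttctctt
WRKY28: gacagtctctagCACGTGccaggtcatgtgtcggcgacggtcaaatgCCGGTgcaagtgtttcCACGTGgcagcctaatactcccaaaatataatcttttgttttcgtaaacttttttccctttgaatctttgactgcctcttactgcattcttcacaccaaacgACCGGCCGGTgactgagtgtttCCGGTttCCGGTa
WRKY8: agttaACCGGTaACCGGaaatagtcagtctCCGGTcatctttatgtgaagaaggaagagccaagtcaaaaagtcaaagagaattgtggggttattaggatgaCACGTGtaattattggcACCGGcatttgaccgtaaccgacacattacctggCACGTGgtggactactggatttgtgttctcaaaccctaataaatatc

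In all, 603 genes were assigned to the SVP-only sites, 566 of them protein-coding genes of the annotation, or 2.06% of such genes. A single gene was assigned to 167 sites, 2 genes to 153, 3 to 57 and 4 to 7, so many genes are neighbours of the bound one. The counts that follow are given beside that 2.06%. The pathway lists behind them were chosen with earlier results of these data known. They are also partial, and leave out members with a site such as *WES1*, *ARF2* and *ERD14*. Their shares depend on this choice and are not read as enrichment. Lists of pathway genes cover 306 genes, of which 36 (11.8%) had an SVP-only site: 10 at sites of both genotypes, 3 at sites of *flc-3* only and 24 at sites of WT only, *COR47* counting under both of the first classes.

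Flowering-time genes had 9 of 57 members with an SVP-only site, among them *CLF* in *flc-3* only, whose peaks covered no intron and are described further on. *AGL19*, *GRP7* (AT2G21660, a clock-regulated RNA-binding protein), *NF-YA1* and *FWA* had sites in both genotypes. *NF-YA1* (AT5G12840, 5.09 in *flc-3* and 7.22 in WT) was 2473 bp from the summit, which lay 56 bp inside the neighbouring gene AT5G12850, and *FWA* (3.07 and 5.77) was 1757 bp away on the other side from *SLK1*. *TOE1* and *TOE2* (AT5G60120), AP2-like repressors of flowering, had sites in WT only. *TOE2* had a pair of them, 1 with a fold-enrichment of 5.37, a CE-box and a G-box 2055 bp upstream, and 1 with 3.06, 72 bp upstream, that held an arm but neither motif. *TEM1* (AT1G25560), another repressor, had an SVP-only site in its 3′UTR in WT only (3.58), 1491 bp from the nearest FLC peak, and was also assigned an FLC peak elsewhere. The paper counts *TEM1* among genes bound by SVP and FLC only when both are present, at another region than this site. A WT-only site (4.13) lay downstream of *MIR172a*, whose miRNA targets the AP2-like repressors.

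*FLC* itself had an SVP-only site in WT only, in its coding sequence 190 bp from the start, with a peak of 3179121 to 3179411 on chromosome 5 and a fold-enrichment of 3.75. *flc-3* is a mutation of this gene, and its effect on mapping at the site was not tested. The plants also carried the *SVP::SVP:GFP* transgene, which the *35S::GFP* control lacked, and the member peak at the *SVP* locus in *flc-3* (9583081 to 9583586 on chromosome 2, fold-enrichment 2.57) was not separated here from transgene DNA.

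The sites of light signalling and CONSTANS-like genes were found in WT only, the class of 64.8% of all SVP-only sites. The paper reports *COL4* as bound by SVP only when FLC was also present. It names *PIF3*, the *TOE* genes, *miR172* and CONSTANS-like genes in its wider set of genes bound by FLC or SVP in WT only. In the light signalling list 5 of 32 genes had a site. *PIF4* (AT2G43010) had a pair of sites with values of 2.76 in a coding exon and 3.11 downstream, *PIF3* had 3.11, *PIF5* (AT3G59060, listed as *PIL6*) 3.03, *HFR1* 3.11 and the blue-light receptor gene *CRY1* 4.03, the last downstream of the gene. Of the 6 genes on the CONSTANS-like list, which does not cover the whole family, *COL4* (4.33, 472 bp upstream) and *COL5* (3.66, downstream) had a site. The clock list gave 2 of 22 genes: *TIC* (AT3G22380), which acts in the clock and in jasmonate signalling, in both genotypes (3.68 in *flc-3* and 4.97 in WT), and *CCA1*, whose site 2688 bp upstream in WT only (2.95) lay at sequence with 13 near-identical matches.

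Hormone lists had few members each. The jasmonate list held 3 of 28: the repressor *JAZ3* (AT3G17860), with 4.73 in *flc-3* and 8.11 in WT, its summit 56 bp before the start, and in WT only the regulator *MYC2* (3.30) and the biosynthetic gene *AOS* (3.15). The genes of the auxin list with a site were *DFL1*, the efflux carrier *PIN4* (4.97, downstream) and *IAA16* (4.17, 3′UTR), 3 of 32. The ethylene list held 3 of 21, with *ERF4* in both genotypes (3.43 in *flc-3* and 2.57 in WT) and the signalling gene *EIN2* (2.93) and the synthesis gene *EFE* (3.54) in WT only. For abscisic acid it was 2 of 30: the transcription factor *ABF4* in *flc-3* only (4.40) and the phosphatase *ABI1* in WT only (3.03). The gibberellin list had *GA2OX8*, which inactivates gibberellins, with 5.59 in an intron in WT only, 1 of 24. The lists alone do not show that FLC was absent from it. The paper counts *GA2OX8* among genes bound only when both proteins are present. It also reports, from separate ChIP, FLC as well as SVP at CArG-boxes in the first intron. SVP-only here means no more than that no listed FLC peak overlapped. None of the 9 brassinosteroid genes and none of the 10 floral organ identity MADS-box genes had an SVP-only site. Sugar and starvation genes had 4 of 15, the regulator *BT2* in both genotypes (3.50 in *flc-3* and 4.33 in WT) and *STP1* (4.14), *ASN1* (3.38) and *TPS7* (2.93) in WT only. The cold and drought list had 2 of 20, *COR47* and, in WT only, *KIN2* (2.83, 3′UTR).

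Sites differed in where they lay. Upstream of a gene, by at most 3 kb, were 172 of the 384 SVP-only summits (44.8%), against 81 of 160 FLC-overlapping summits (50.6%), a difference of −5.83 points (interval −14.9 to 3.32) that did not pass the test (Fisher's exact test, two-sided, *P* = 0.221). 3′UTRs held 64 of the SVP-only summits (16.7%), 5′UTRs 57 (14.8%), introns 29 and coding exons 27. Position went with the elements, which was seen after looking at the sites and has no test: of the 159 sites with an arm or a G-box, 128 (80.5%) were upstream or in a 5′UTR and 10 (6.29%) in a 3′UTR or downstream, while of the 225 sites with neither the shares were 44.9% and 30.2%. Among the sites of both genotypes the contrast was 60 of 68 (88.2%) upstream or in a 5′UTR with an element, against 4 of 21 (19.0%) without. The median fold-enrichment in WT of those 68 sites was 6.79 and of those 21 sites 3.18. The 21 sites included the cold- and drought-induced genes *COR47* (3.10 in *flc-3* and 3.04 in WT), *ERD14* (2.67 and 3.22) and *ERD15* (3.40 and 3.14), *ERF4* and the ubiquitin gene *UBQ10* (3.27 and 3.12), named after their values were seen.

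**Figure D4:**
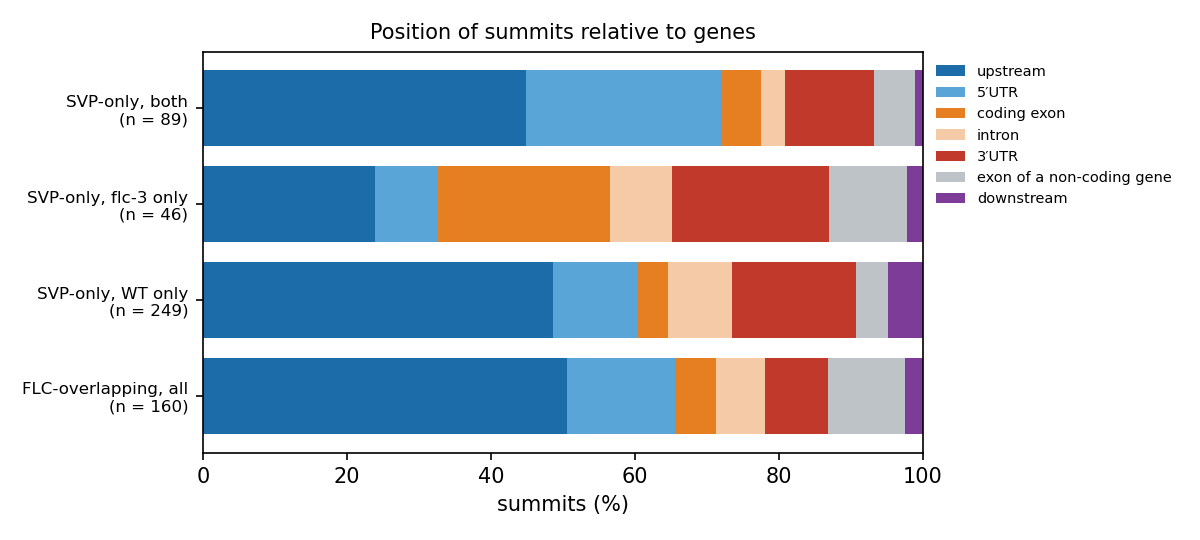
Position of the summits relative to genes, in percent of sites, for the 3 classes of SVP-only sites and for all FLC-overlapping sites. Summits upstream of a gene made up 23.9% of the sites of *flc-3* only and 48.6% of those of WT only.

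The sites of *flc-3* only stood apart from those of WT only. Their summits were upstream of a gene at 11 of 46 sites (23.9%), against 121 of 249 (48.6%, −24.7 points, Fisher's exact test, two-sided, *P* = 0.00205, adjusted *P* = 0.00409 over 4 comparisons). They lay at copied sequence at 12 of 46 (26.1%), against 14 of 249 (5.62%, Fisher's exact test, adjusted *P* = 0.000390), and at a G-box at 1 of 46 (2.17%), against 35 of 249 (14.1%, adjusted *P* = 0.0330). CArG-boxes were at 2 of 46 and 7 of 249 (Fisher's exact test, adjusted *P* = 0.635). Over all classes, copied sequence held 28 of the 384 SVP-only sites (7.29%), against 7 of 160 (4.38%, Fisher's exact test, *P* = 0.252). Among FLC-overlapping sites it held 3 of 13 of *flc-3* only (23.1%) and 1 of 104 of WT only (0.962%). Its larger share in *flc-3* only was thus not particular to SVP-only sites. Of the 12 copied SVP-only sites of *flc-3* only, 9 lay in 1 stretch of chromosome 2, and the test counted these neighbours as separate units. Without the sites of *CLF* the upstream difference had an adjusted *P* of 0.0695 and that of the G-box 0.0814, and without copied sequence that of the G-box was 0.144. At a −log10(*P*) of at least 20, with 22 sites of *flc-3* only, the first 3 comparisons each had an adjusted *P* of 0.234 (Fisher's exact test). The CArG-box differed by 19.5 points (Fisher's exact test, adjusted *P* = 0.00613), with 5 of these 22 sites, against 2 of 46 without the cut. The cut also removed weaker FLC peaks, so sites that overlapped a listed FLC peak could count as SVP-only. The CArG-box value is therefore not read as a trait of SVP-only sites. All these alternatives were chosen after seeing the data.

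*CLF* (AT2G23380), a Polycomb gene whose product represses *FLC* and floral regulators through histone methylation, held 9 of the 46 sites of *flc-3* only, and the other 3 lists had 0 peaks there. The gene lies on chromosome 2 from 9955092 to 9960386. Its 9 peaks had fold-enrichments between 2.55 and 4.95 and covered 47.7% of the gene. Exons made up 66.4% of the gene and held 100% of the covered bases of the gene: 71.8% of the exon bases and 0% of the 1781 intron bases were under a peak. Summits were in the 5′UTR, the 3′UTR and coding exons. The strongest, 5185 bp from the start, was the highest-ranked site of *flc-3* only (−log10(*P*) of 45.6). None of the 9 peaks was at copied sequence. Whether the reads under them came from chromatin or from spliced *CLF* sequence was not tested, so they are counted here as listed peaks and not as established binding sites.

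**Figure D5:**
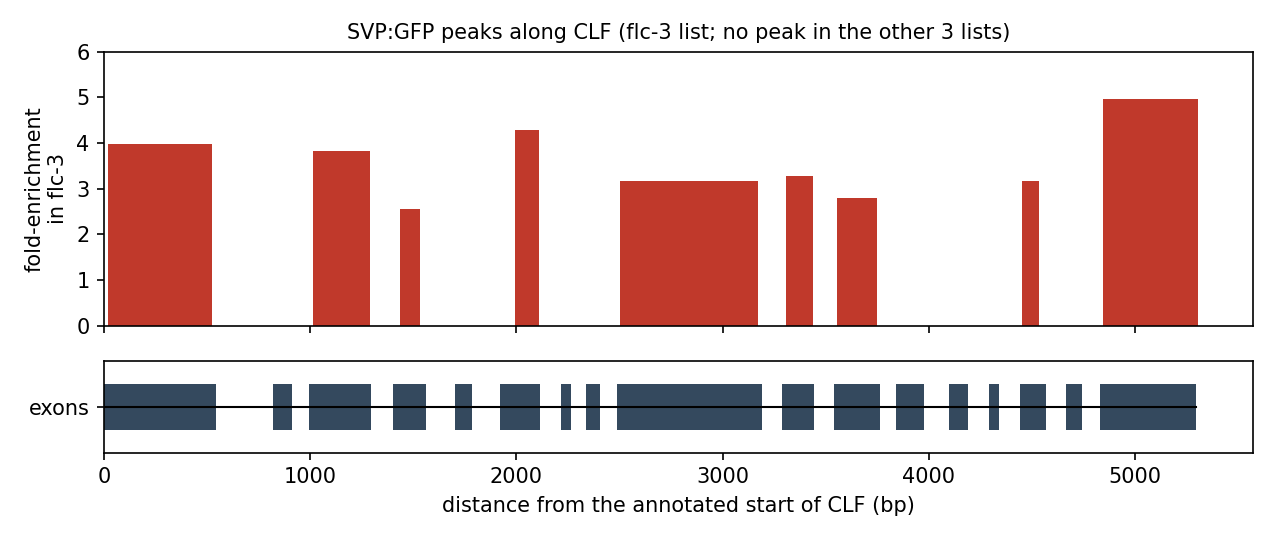
SVP:GFP peaks of the *flc-3* list along *CLF*, with width in bp from the annotated start and height as fold-enrichment in *flc-3*. Dark boxes are the 17 exons, introns are the line between them. The 9 peaks lie over exons, the last also reaching past the annotated end, with values from 2.55 to 4.95.

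A further 11 sites of *flc-3* only matched an organelle genome, 9 of them on chromosome 2 between 3276621 and 3489721, with fold-enrichments of 1.67 to 3.22 over the 11. The remaining 25 sites, without *CLF* and without copies, included a pair at *RAP2.4* (3.01 and 4.07), an AP2-type factor of stress responses, a pair at *CYCD3;1* (2.75 and 3.14), a cyclin gene of cell proliferation, and a pair at *UBQ11* (2.67 and 2.77). *ABF4*, *COR47* with *ERD10* (2.77) and the touch-induced genes *TCH3* (3.25) and *TCH4* (3.80) also had a site in *flc-3* only. By −log10(*P*), the strongest site of this class outside *CLF* was a peak between *G4* and *SAC8* (4.0).

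Among the WT-only sites, AT1G64625 came first with a fold-enrichment of 6.65, 176 bp upstream, followed by the site between AT1G78060 and AT1G78070 (6.21), *SIP3* (5.31), which encodes a kinase of salt signalling, *WRKY6* (6.02) and *ATCTH* (4.87) in order of −log10(*P*). AT1G78070 had 3 WT-only sites. More than 1 SVP-only site was assigned to 57 genes, and *MYBR1* (AT5G67300), a stress-related MYB gene, had 1 site of each class: 3.21 in *flc-3* only, 3.99 in *flc-3* and 6.57 in WT at the shared site, and 5.43 in WT only.

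The median gap between an SVP-only site and the nearest FLC peak was 107420 bp. The rule removed overlapping sites, and no gap was measured for other positions, so this value has no background. Within 1 kb of an FLC peak were 5 sites, and 22 of the 603 genes were also assigned an FLC peak. The sites just outside the rule's limit were 113 bp (AT2G07981 and AT2G08986, fold-enrichment 1.70 in *flc-3*), 288 bp (AT5G24060 and AT5G24070, 3.22 in *flc-3*) and 514 bp (AT5G55960 and AT5G55970, 3.11 in WT) from an FLC peak. The SVP:GFP peaks with the least overlap shared 94 bp at *FT* (2.12 in *flc-3*), 97 bp at AT5G10336 and AT5G10340 (2.44 in *flc-3*) and 98 bp at a second peak of AT5G24060 and AT5G24070 (2.60 in *flc-3*).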

How the data were processed

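ChIP-seq peaks of SVP:GFP in *flc-3* and WT were set against FLC peaks in *svp-41* and WT. The submitters' processing notes name CASAVA 1.8, Bowtie2 2.0.2 and MACS, with the TAIR10 genome. The authors removed duplicated reads, kept peaks reproducible between replicates and also found by NarrowPeaks, and deposited 1 merged list per protein and genotype. Its fold-enrichment is the ratio of sample to control, and its −log10 p-value is that of the authors' peak calling. Both were used only to describe, rank or filter peaks. With peak lists alone, no depth can be given for any sample, and intervals of shares cover counting error only.

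Coordinates were used with TAIR10.1 (RefSeq), whose nuclear chromosomes have the same lengths. Genes are those assigned by the authors. Of the 603 genes, 593 were in TAIR10.1. A summit inside a gene counted for that gene, otherwise for a gene up to 3 kb downstream of it or 1 kb upstream of it. Elements were searched on both strands in 200 bp around the summit of the WT peak, or of the *flc-3* peak where there was none. Copied sequence means a blastn 2.17.0 match of at least 95% identity over at least 150 bp, organelles included. Shares were compared by Fisher's exact test with Newcombe intervals and Benjamini-Hochberg adjustment over 10 motifs or 4 class comparisons (Python 3.11.15, SciPy 1.17.1, statsmodels 0.14.6). Sites are the units of these tests and are not biological replicates. Overlaps (checked against bedtools 2.31.1), element searches and Fisher's test were tested on simulated data.

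Named genes are those of the 5 sites of each class that ranked first by −log10 p-value, the pathway genes with a site, the sites nearest the limit and genes with several sites; further names are marked in the text or belong to related genes and families chosen after seeing the data. The members and lists were chosen with earlier results of these data known. Alternatives were the p-value threshold, the definition of overlap, the FLC lists, copied sequence, the window, the motif and the promoter length.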

Additional observations from a re-analysis of the deposited data

How the results depend on the processing

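The number of SVP-only sites was between 357 and 409 under the 5 other definitions, beside 384 as reported, but the members were not all the same. With a −log10 p-value of at least 20 in all lists, FLC-overlapping sites fell from 160 to 74. SVP-only WT peaks then rose from 338 to 353, because peaks whose FLC peak was dropped counted as SVP-only. The CE-box and CArG-box differences kept their direction and their call under the 5 definitions, and the CArG-box also with 1 mismatch and in wider windows. Differences below are in percentage points, SVP-only less FLC-overlapping or *flc-3* only less WT only. With a −log10 p-value of at least 20 the share with a peak in *flc-3* differed by −18.7, upstream summits by 6.07, copied sequence by −3.02, and between the single-genotype classes CArG-boxes by 19.5 (Fisher's exact test, adjusted *P* = 0.00613), G-boxes by −12.2, upstream summits by −15.1 and copied sequence by 5.23. Split at the median −log10 p-value, the share with a peak in *flc-3* differed by 12.1 above and 0.250 below. Without copied sequence the classes differed by −0.0249 in CArG-boxes and −11.5 in G-boxes, and without *CLF* by −11.4 in G-boxes and −18.9 upstream. The E-box passed with FLC peaks within 1 kb counted as shared (−8.42) and without copied sequence (−8.22), and reversed in whole peaks (4.01), as did the evening element (2.66). In whole peaks the GCC-box (7.29) and W-box (15.2) passed, and in 400 bp the site II element (−12.3), where the ABRE core turned to −1.35. By class, the G-box passed at sites of both genotypes (26.7), while the CArG-box did not at sites of *flc-3* only (−26.4) or WT only (−1.03), nor the CE-box at sites of *flc-3* only, where the difference was 0. Alternatives for the CE-box, the other elements, copied sequence and the classes, and those without *CLF* or by class, were chosen after seeing the data. The causes were not tested. No paired analysis was possible because the lists merge the replicates, and for the same reason no replicate could be left out.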
